A study of Mus musculus with 17 samples.

Results

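The genes described here are the 10 mouse genes of hepcidin and of the bone morphogenetic protein (BMP) and iron circuit around it: the hepcidin genes Hamp and Hamp2, the ligand Bmp6, the BMP target genes Id1, Smad6 and Smad7, the transferrin receptors Tfr2 and Tfrc, transferrin (Trf) and ferroportin (Slc40a1). They were chosen by name, as the count table's entries whose Ensembl identifiers map to these symbols, and make up 10 of its 23461 genes. All 10 passed the filter on low counts, which left 13721 genes to be tested. Messenger RNA was sequenced from hepatocytes that had been isolated by fluorescence-activated cell sorting from male mice aged 2 to 3 months. The 4 groups were compared, in a design that asks how hepatocytes respond to carbon tetrachloride (CCl4), a solvent toxic to the liver, with and without Yap and Taz, the transcriptional coactivators restrained by the Hippo kinases. There were 3 libraries of Yap/Taz knockout hepatocytes after CCl4 (KO CCl4), 4 of untreated knockout hepatocytes (KO untreated), 5 of wild type hepatocytes after CCl4 (WT CCl4) and 5 of untreated wild type hepatocytes (WT untreated). CCl4 was dosed at 1 ug/g, 7 times with 3 days between doses, and cells were collected 3 days after the final dose. How the knockout was driven, and in which strain, is not given in the sources used here. Libraries of a group are numbered in the labels, which leave unsaid whether every library had an animal of its own, so the p-values measure the spread between these libraries.

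Hepcidin is the peptide hormone by which hepatocytes lower iron in the blood: it binds ferroportin, the iron exporter of macrophages, enterocytes and hepatocytes, and has it degraded. Hamp transcription is driven by BMP6, which in mouse liver is made mainly by sinusoidal endothelial cells and signals through SMAD1, SMAD5 and SMAD8 in hepatocytes, and by interleukin-6 through STAT3 in inflammation. Id1, Smad6 and Smad7 are induced by the same SMADs, and SMAD6 and SMAD7 inhibit the signal in turn. Transferrin carries iron in plasma, transferrin receptor 1 (Tfrc) takes it into cells, and transferrin receptor 2 (Tfr2) senses loaded transferrin on hepatocytes. Mouse Hamp2 is a duplicate of Hamp, and in mice hepcidin 2 has not been found to have the iron-lowering action of hepcidin 1.

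The upstream sequences of both hepcidin genes are shown because Hamp2 was lower in the knockout after CCl4 while Hamp was called in no comparison. Hamp (ENSMUSG00000050440) lies on the minus strand of chr7:30942368-30944032 and Hamp2 (ENSMUSG00000056978) on the same strand at chr7:30922372-30924681 (GRCm38, which is mm10). The stretches printed are the 150 bases before each RefSeq start in build GRCm38.p6, at chr7:30944030-30944179 for Hamp and chr7:30924182-30924331 for Hamp2, both 5′ to 3′ on the minus strand. The Hamp2 stretch lies within the GENCODE bounds of Hamp2 given above, because its RefSeq start lies inside them. The Hamp stretch meets the bounds of Hamp at its last bases only. Capitals mark the core of the BMP-response element, GGCGCC in Hamp, with the bases of Hamp2 that align with it, and after it the STAT3 site TTCTTGGAA.
Hamp: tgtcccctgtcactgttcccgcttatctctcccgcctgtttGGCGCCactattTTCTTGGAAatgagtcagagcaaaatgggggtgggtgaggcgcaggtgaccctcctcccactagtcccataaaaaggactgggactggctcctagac
Hamp2: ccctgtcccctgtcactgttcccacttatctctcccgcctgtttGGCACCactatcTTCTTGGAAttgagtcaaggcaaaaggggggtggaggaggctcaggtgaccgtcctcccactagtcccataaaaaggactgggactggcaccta
The stretches were identical at 88.2% of aligned positions. In the 6 bases of the element the genes differed by G4A, counted from 1 at the 5′ end with the base of Hamp first. The 250 bases before the Hamp start held GGCGCC, beginning 109 bases before it, and those of Hamp2 held no match on either strand. TTCTTGGAA began 97 bases before the start of Hamp and 94 before that of Hamp2. Both motifs were searched on both strands and neither overlaps the other. Of 32851 RefSeq promoter windows, 9.59% held GGCGCC and 0.365% held TTCTTGGAA, so GGCGCC alone is a common string. The promoter table also had windows for Bmp6, Smad6, Tfr2 and Tfrc, of which 1 of 2 Tfrc windows held GGCGCC, and these matches describe letters, not bound sites.

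Slc40a1 and Tfrc messenger RNAs carry iron-responsive elements, hairpins bound by the iron regulatory proteins IRP1 (Aco1) and IRP2 (Ireb2) when iron is scarce. Binding in the 5′ untranslated region blocks translation of ferroportin, and binding in the 3′ untranslated region stabilises the Tfrc messenger RNA. These elements are shown because Tfrc was among the genes that changed. A search of GENCODE M21 transcripts for a C, 5 stem bases, a loop written CAGTGN (last base not G) and 5 bases that pair back, with 5 more pairs below (G-T pairs allowed), found 1 in Slc40a1 and 4 in Tfrc, and none in the other 8 genes. Of 21901 genes with a protein-coding transcript, 4 held such an element. The search misses elements with an unpaired base among these pairs or another loop, so these counts are of this pattern only. Capitals mark the loop, and each sequence has 27 bases. The Slc40a1 element lies in the 5′ untranslated region at chr1:45925466-45925492 on the minus strand, and the Tfrc elements in the 3′ untranslated region on the plus strand at chr16:32631220-32631246, chr16:32631599-32631625, chr16:32631664-32631690 and chr16:32631711-32631737 (GRCm38).
Slc40a1 5′ element: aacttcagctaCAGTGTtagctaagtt
Tfrc 3′ element a: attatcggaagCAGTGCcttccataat
Tfrc 3′ element b: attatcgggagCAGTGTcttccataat
Tfrc 3′ element c: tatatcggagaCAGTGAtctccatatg
Tfrc 3′ element d: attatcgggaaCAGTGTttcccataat

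Libraries held between 11266420 and 24775863 counts. The targeted genes matched the genotype labels: Yap1 averaged 1.37 ± 0.746 CPM in KO CCl4 and 3.50 ± 3.08 CPM in KO untreated, against 55.2 ± 8.41 CPM in WT CCl4 and 51.3 ± 13.4 CPM in WT untreated (SD, n = 3, 4, 5 and 5), where CPM is the usual count unit normalised to sequencing depth, here to the scaled library size. Wwtr1, the gene of Taz, averaged 4.76 ± 2.20 and 1.87 ± 0.664 CPM in those knockout groups and 19.6 ± 3.24 and 12.8 ± 3.54 CPM in those wild type groups. Mitochondrially encoded genes held 34.3% of the counts of KO CCl4 replicate 3 and 30.8% of those of WT untreated replicate 5, against 1.98 to 20.1% in the other 15 libraries. Summed hepatocyte markers lay between 102800 and 163100 CPM in every library. In KO CCl4, 5 of 12 tested hepatocyte markers were called lower than in KO untreated (median log2 fold change −0.57), and 0 higher. Against WT CCl4, 2 of 12 were called lower (median −0.44) and 0 higher. The shares of all tested genes called lower were 6.96% and 4.21%. Summed macrophage markers reached 5546 CPM in KO CCl4 replicate 3, against 168 and 404 CPM in replicates 1 and 2 of that group and 21.01 to 159 CPM in the other 3 groups. Summed liver endothelial markers reached 1286 CPM in the same library, against 209 and 148 CPM in its group and 13.5 to 278 CPM elsewhere. Of the tested macrophage markers, 18 of 18 were called higher in KO CCl4 against KO untreated and 18 of 18 in KO CCl4 against WT CCl4. Among all tested genes 12.1% and 7.62% were called higher in these comparisons. No defining marker of macrophages or endothelial cells was at 0 in any group. Values without KO CCl4 replicate 3 are therefore given beside the results that it moved most.

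Per kilobase of exon the genes spanned a wide range. Averaged over the 4 group means, Trf stood at 5209 RPKM (CPM divided by the kilobases of exon), Hamp at 1061, Tfr2 at 91.3, Hamp2 at 49.3, Slc40a1 at 10.6, Id1 at 7.86, Tfrc at 4.39, Smad7 at 3.08, Smad6 at 1.24 and Bmp6 at 0.213 RPKM. The secreted plasma proteins thus led the order, and the ligand Bmp6, with 2 to 38 counts per library, came last. Levels varied least for Tfr2, whose highest library had 2.11 times the CPM of its lowest, and most for Id1, with a factor of 112.

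The 2 knockout effects and the 2 CCl4 effects were compared gene by gene, with all genes in the same fit. After CCl4, knockout hepatocytes had less Hamp2 and more Trf, Tfrc and Slc40a1 than wild type hepatocytes, so that 4 of the 10 genes were called (edgeR quasi-likelihood test, Benjamini-Hochberg adjusted p under 0.05), against 11.8% of all tested genes (7.62% higher and 4.21% lower). Within the knockout, CCl4 raised Tfrc and Trf, 2 of 10, against 19% of all tested genes (12.1% higher and 6.96% lower), which is a share near that background. No gene of the 10 was called for CCl4 in wild type cells, where 0.853% of all tested genes were called. There 1 gene, Tfr2, had an unadjusted p under 0.05. DESeq2 and limma voom also called 0, beside 3.63% and 0.568% of all tested genes. The groups of that comparison overlapped for each of the 10 genes, while of all tested genes 3.15% were higher and 1.69% lower without overlap. No gene of the 10 was called for the knockout in untreated cells, against 0.933% of all tested genes. There 2 had an unadjusted p under 0.05, while DESeq2 called Hamp2 and limma voom 0. These tools called 2.41% and 0.882% of all tested genes in that comparison. The CCl4 effect in KO minus that in WT was called for 0 of 10, against 1.09% of all tested genes. Calls with the larger effect in KO made up 0.794%. Here 2 of the 10 had an unadjusted p under 0.05, while DESeq2 called Tfrc and limma voom 0. For this difference DESeq2 called 5.87% of all tested genes and limma voom 0.0656%. The median log2 fold change of the 10 genes was 0.55 for CCl4 in KO, −0.03 for CCl4 in WT, 0.88 for KO after CCl4 and 0.28 for KO untreated, beside 0.01, −0.01, 0.04 and −0.01 for all tested genes. KO CCl4 replicate 3 carried part of this: without it the median was 0.00 for CCl4 in KO and 0.45 for KO after CCl4. The comparisons share groups (KO CCl4 enters both CCl4 in KO and KO after CCl4), so their calls are not independent of each other.

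**Figure D1:**
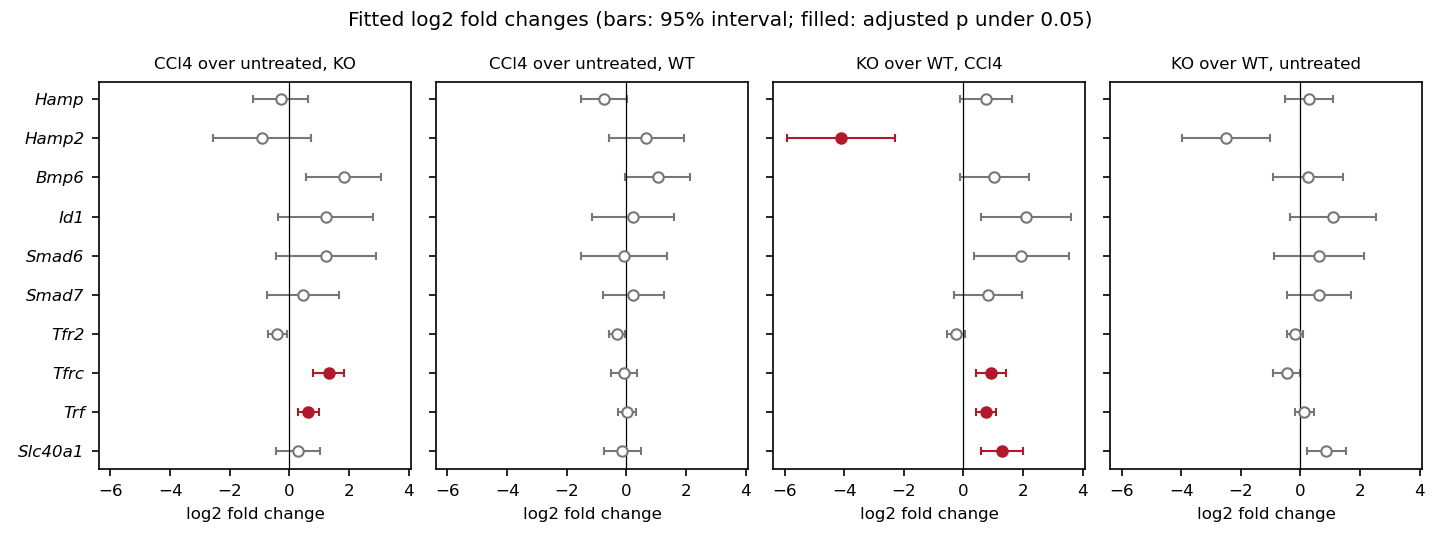
Fitted log2 fold changes of the 10 genes in the 4 comparisons of 2 groups, 1 gene per line, with bars for the approximate 95% interval (normal quantile times SE) and filled points for adjusted p under 0.05. Filled points lie at Hamp2 (−4.10), Tfrc (0.92), Trf (0.76) and Slc40a1 (1.29) for KO over WT after CCl4, and at Tfrc (1.32) and Trf (0.64) for CCl4 over untreated in KO, with none in the other 2 panels.

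Hamp itself was not called in any comparison. It had 498, 266 and 608 CPM in KO CCl4 and 1045, 215, 540 and 422 CPM in KO untreated. It had 172, 309, 190, 221 and 463 CPM in WT CCl4, against 483, 585, 632, 315 and 267 CPM in WT untreated. The group means were 457 ± 175 CPM in KO CCl4, 556 ± 353 CPM in KO untreated, 271 ± 120 CPM in WT CCl4 and 456 ± 161 CPM in WT untreated (SD, n = 3, 4, 5 and 5), so KO untreated was highest and WT CCl4 lowest, and every pair of groups overlapped. The widest gap within a genotype was in wild type cells, where the log2 fold change of CCl4 over untreated was −0.75 ± 0.39 (SE, adjusted p = 0.391, edgeR), with a 95% interval from −1.52 to 0.01. In KO the same change was −0.28 ± 0.47 (adjusted p = 0.756), with an interval from −1.20 to 0.64. KO untreated replicate 1 set that direction: without it the change was 0.22 (adjusted p = 0.813), and without KO CCl4 replicate 3 it was −0.54 (adjusted p = 0.588). KO over WT was 0.75 ± 0.44 after CCl4 (adjusted p = 0.302), or 0.50 without KO CCl4 replicate 3 (adjusted p = 0.694), and 0.28 ± 0.41 untreated (adjusted p = 0.927), or −0.22 without KO untreated replicate 1 (adjusted p = 0.973). Within KO untreated alone, replicates 1 and 2 differed by 4.86 times.

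Hamp2 had the widest fitted difference between genotypes among the 10 genes. It had 5.32, 3.33 and 2.44 CPM in KO CCl4, against 18.6, 130, 21.6, 113 and 35.5 CPM in WT CCl4. Every KO CCl4 library lay below every WT CCl4 library, as was so for 7.97% of all tested genes. The fitted level fell 17.2-fold (log2 fold change −4.10 ± 0.92, SE, adjusted p = 0.00921, edgeR). In untreated cells Hamp2 had 1.89, 3.00, 11.4 and 12.1 CPM in KO, against 64.6, 75.1, 19.6, 30.6 and 11.1 CPM in WT. Here the groups overlapped at WT untreated replicate 5, with a log2 fold change of −2.50 ± 0.75 and an adjusted p of 0.177 by edgeR and of 0.00854 by DESeq2. CCl4 over untreated gave −0.93 ± 0.84 in KO (adjusted p = 0.517) and 0.67 ± 0.64 in WT (adjusted p = 0.685), and the difference of these effects was −1.60 ± 1.06 (adjusted p = 0.481). Without KO CCl4 replicate 3 the change in KO after CCl4 kept its size, at −3.89, with an adjusted p of 0.0772 on 2 KO libraries.

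The ratio of the genes does not depend on how libraries were scaled. Hamp2 made up 1.06, 1.24 and 0.400% of the summed Hamp and Hamp2 counts in KO CCl4, against 9.75, 29.7, 10.2, 33.9 and 7.11% in WT CCl4. It made up 0.180, 1.37, 2.07 and 2.78% in KO untreated, against 11.8, 11.4, 3.01, 8.84 and 3.98% in WT untreated. Knockout and wild type libraries did not overlap under either treatment, and the nearest were KO untreated replicate 4 (Wilson 95% interval 2.36 to 3.26%) and WT untreated replicate 3 (2.70 to 3.35%), whose intervals overlap. This share was computed after the values of Hamp2 were seen and is given without a test, and its intervals cover counting error only. The genes are close copies: their coding parts are identical at 92.5% of aligned positions, and 16.6% of the 50-base windows of the longest coding Hamp transcript also occur in Hamp2 transcripts. How reads that match both genes were counted is not given in the sources used here, so reads of either copy that were counted to the other cannot be told apart. Hamp2 also shares 89 exonic bases with the lincRNA Gm44662 on the opposite strand.

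**Figure D2:**
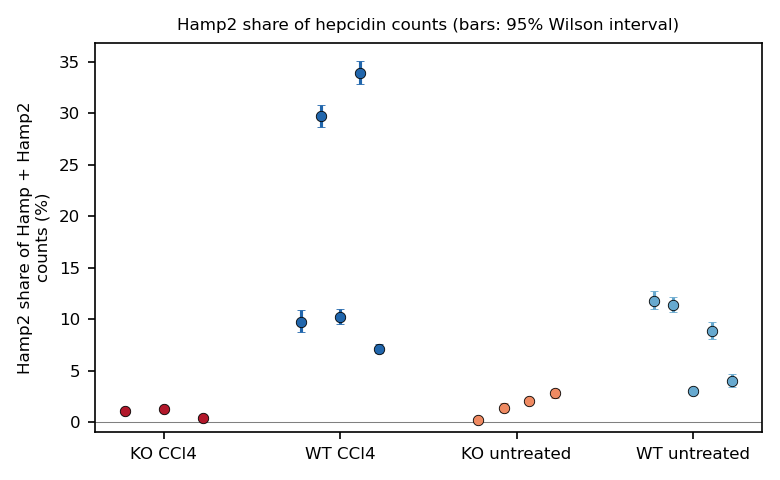
Share of Hamp2 in the summed Hamp and Hamp2 counts, in percent, with 1 point per library and bars for the Wilson 95% interval. The 7 KO libraries lie between 0.180 and 2.78% and the 10 WT libraries between 3.01 and 33.9%.

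Bmp6 (ENSMUSG00000039004, plus strand of chr13:38345107-38500302), the ligand, had few counts in these sorted hepatocytes. It had 1.31, 0.715 and 2.99 CPM in KO CCl4, from 22, 20 and 38 counts, against 0.615, 0.171, 0.385 and 0.670 CPM in KO untreated, from 14, 2, 7 and 8 counts. Each KO CCl4 library exceeded each KO untreated library, as was so for 14.4% of all tested genes, and the log2 fold change of 1.82 ± 0.64 (SE) missed the threshold by edgeR (adjusted p = 0.0589) but not by DESeq2 (adjusted p = 0.0424). In wild type cells Bmp6 had 0.499, 1.14, 0.321, 1.46 and 0.619 CPM after CCl4, against 0.403, 0.417, 0.440, 0.516 and 0.144 CPM untreated, with groups that overlapped and a log2 fold change of 1.05 ± 0.56 (adjusted p = 0.403). The libraries with the most Bmp6, KO CCl4 replicate 3 and WT CCl4 replicate 4, were those with the highest summed endothelial markers of their groups, 1286 and 278 CPM. The part of endothelial RNA in the Bmp6 values was not tested, and in bulk samples more cells of a type and more RNA per cell cannot be told apart. The change in KO was 1.11 without KO CCl4 replicate 3 (adjusted p = 0.331) and 2.19 without replicate 2 (adjusted p = 0.039). KO over WT was 1.04 ± 0.59 after CCl4 (adjusted p = 0.288), 0.33 without KO CCl4 replicate 3 (adjusted p = 0.871), and 0.27 ± 0.60 untreated (adjusted p = 0.962). Bmp6 also shares 224 exonic bases with Txndc5 on the opposite strand, and the strand setting of the counting is not given in the sources used here.

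**Figure D3:**
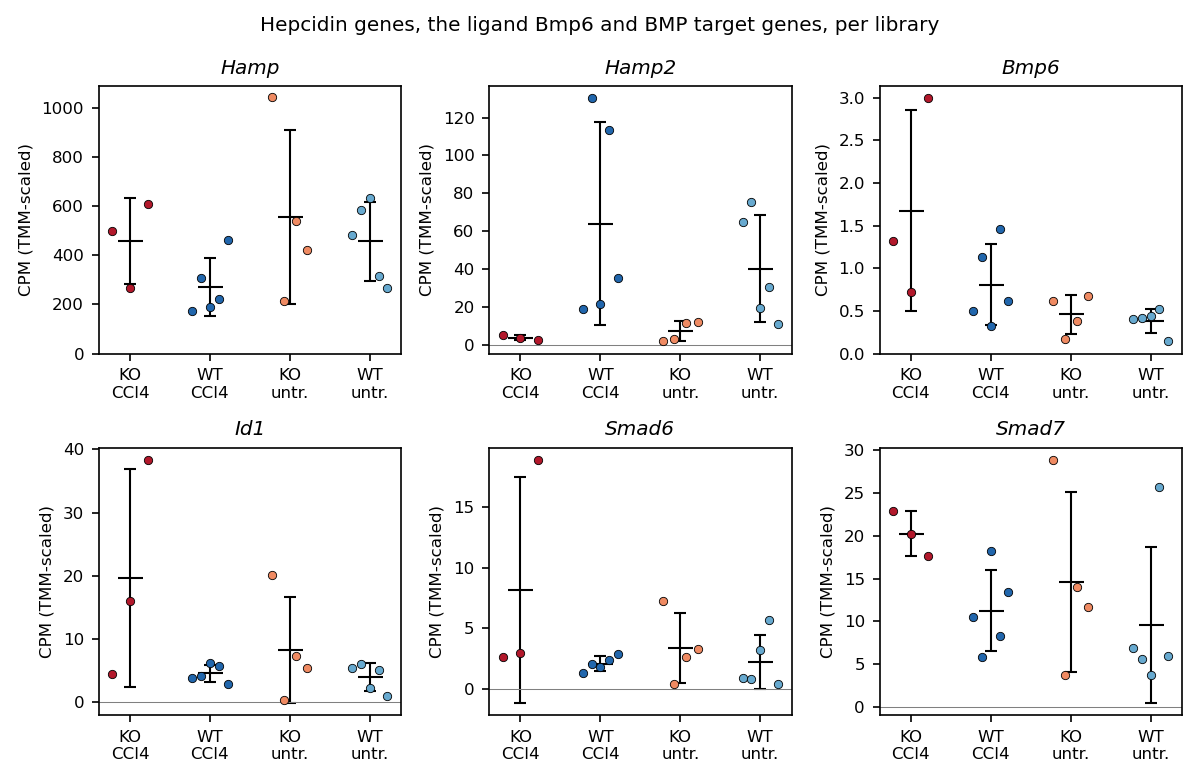
CPM of Hamp, Hamp2, Bmp6, Id1, Smad6 and Smad7 in each library (points), with the group mean and 1 SD (bars). Hamp2 lies at 2.44 to 5.32 CPM in KO CCl4 and 18.6 to 130 CPM in WT CCl4, while the groups of Hamp overlap, and the highest Id1 and Smad6 points, 38.4 and 18.9 CPM, are KO CCl4 replicate 3.

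The BMP target genes were scattered within the knockout groups, and no comparison of Id1, Smad6 or Smad7 was called. Id1 (ENSMUSG00000042745, plus strand of chr2:152736251-152737410), an inhibitor of helix-loop-helix transcription factors, had 4.48, 16 and 38.4 CPM in KO CCl4, against 3.80, 4.22, 6.21, 5.76 and 2.9 CPM in WT CCl4. Replicates 2 and 3 of KO CCl4 lay above all WT CCl4 libraries and replicate 1 among them, and the log2 fold change was 2.09 ± 0.77 (SE, adjusted p = 0.0901, edgeR). DESeq2 called it, with an adjusted p of 0.042, and without KO CCl4 replicate 3, the library with the most Id1, the edgeR change was 1.17 (adjusted p = 0.527). It passed by edgeR without KO CCl4 replicate 1 (2.55, adjusted p = 0.0364) or KO untreated replicate 2 (2.09, adjusted p = 0.0353). Untreated, Id1 had 20.1, 0.342, 7.36 and 5.44 CPM in KO, against 5.44, 6, 2.26, 5.08 and 1.01 CPM in WT, so KO untreated held both the highest and the lowest untreated library.

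Smad6 (ENSMUSG00000036867, minus strand of chr9:63953076-64022059), an inhibitor of BMP receptor signalling, had 2.63, 2.97 and 18.9 CPM in KO CCl4, against 1.31, 2.08, 1.82, 2.44 and 2.86 CPM in WT CCl4. Its log2 fold change was 1.94 ± 0.81 (SE, adjusted p = 0.137), and 0.41 without KO CCl4 replicate 3 (adjusted p = 0.873), the library that stood apart. In untreated cells it had 7.29, 0.428, 2.64 and 3.27 CPM in KO and 0.907, 0.834, 3.2, 5.67 and 0.434 CPM in WT, which overlapped. Smad7 (ENSMUSG00000025880, plus strand of chr18:75367529-75395935), which blocks both BMP and TGF-beta receptors, had 22.8, 20.2 and 17.6 CPM in KO CCl4, against 10.5, 5.86, 18.2, 8.34 and 13.4 CPM in WT CCl4, where only WT CCl4 replicate 3 reached into the KO range (log2 fold change 0.84 ± 0.58, adjusted p = 0.399). It had 28.9, 3.77, 14.0 and 11.7 CPM in KO untreated and 6.86, 5.67, 3.77, 25.7 and 6 CPM in WT untreated, which overlapped too. CCl4 over untreated in KO was 1.22 ± 0.81 for Id1, 1.24 ± 0.86 for Smad6 and 0.46 ± 0.62 for Smad7 (adjusted p = 0.350, 0.374 and 0.685). Without KO CCl4 replicate 3 it was 0.30 for Id1 (adjusted p = 0.880) and −0.30 for Smad6 (adjusted p = 0.880), so that library set the sign of the Smad6 value. In WT it was 0.22 ± 0.70, −0.08 ± 0.73 and 0.23 ± 0.52 for Id1, Smad6 and Smad7 (adjusted p = 0.928, 0.976 and 0.886). KO untreated replicate 2 was the lowest of its group, and replicate 1 the highest, for Hamp, Id1, Smad6 and Smad7.

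Hamp was then set against the ligand and the target genes across all 17 libraries, after the group means had been removed from the log2 CPM. Pearson's r with Hamp was 0.602 for Bmp6, 0.556 for Id1, 0.596 for Smad6 and 0.228 for Smad7, and Spearman's rho was 0.554, 0.392, 0.542 and 0.108. By permutation within groups the p of r was 0.0252, 0.0942, 0.0381 and 0.496, and the p of rho 0.0443, 0.182, 0.0568 and 0.706. Adjusted over these 4 relations, the p of r was 0.0762 for Bmp6, 0.126 for Id1, 0.0762 for Smad6 and 0.496 for Smad7, and that of rho 0.114, 0.242, 0.114 and 0.706, so no relation passed over all 17 libraries. With 1 library left out, Bmp6 passed in 3 of the 17 cases and Smad6 in 1, always a wild type library. Without the libraries farthest from the median of Hamp, KO untreated replicate 1 and WT CCl4 replicate 1, r was 0.570, 0.402, 0.476 and −0.03 for Bmp6, Id1, Smad6 and Smad7. Leaving out KO untreated replicate 2 gave an r of 0.270 with Id1.

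Tfrc (ENSMUSG00000022797, plus strand of chr16:32608920-32632794), the receptor that imports transferrin-bound iron, rose with CCl4 in the knockout. It had 26.7, 62.6 and 42.0 CPM in KO CCl4, against 21.6, 13.8, 15.7 and 18.8 CPM in KO untreated, without overlap, as was so for 14.4% of all tested genes. The rise was 2.50-fold (log2 fold change 1.32 ± 0.27, SE, adjusted p = 0.00264, edgeR). In wild type cells Tfrc had 24.7, 16.3, 27.9, 20.8 and 25.7 CPM after CCl4, against 33.3, 21, 23.4, 18.8 and 24.6 CPM untreated, which overlapped throughout (log2 fold change −0.07 ± 0.22, adjusted p = 0.930, 95% interval from −0.51 to 0.37). The difference of the CCl4 effects was 1.39 ± 0.35 and missed the threshold by edgeR (adjusted p = 0.0586) but not by DESeq2 (adjusted p = 0.00729). KO CCl4 over WT CCl4 was 0.92 ± 0.25 (adjusted p = 0.0253), with KO CCl4 replicate 1 inside the wild type range. That call was made in 13 of the 17 fits that left out a library. It was lost without KO CCl4 replicate 2 (0.57, adjusted p = 0.176) or 3 (0.96, adjusted p = 0.085) and without WT CCl4 replicate 2 (0.82, adjusted p = 0.0632) or 4 (0.89, adjusted p = 0.0526). KO over WT untreated was −0.47 ± 0.24 (adjusted p = 0.625).

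Tfrc is also high in dividing cells. Summed cell cycle markers were 319, 993 and 357 CPM in KO CCl4, 40.8 to 49.97 CPM in KO untreated, 115 to 212 CPM in WT CCl4 and 43.8 to 346 CPM in WT untreated. Of 20 tested cell cycle genes, 19 were called higher for CCl4 in KO and 7 for KO after CCl4. The shares of all tested genes called higher were 12.1% and 7.62%. KO CCl4 replicate 2 had both the most Tfrc and the most cell cycle RNA. WT untreated replicate 5, with 346 CPM of cell cycle markers, had 24.6 CPM of Tfrc, inside its group's range. Mitochondrially encoded genes held 30.8% of the counts of that 1 library. The part of cell division in the Tfrc values was not tested.

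**Figure D4:**
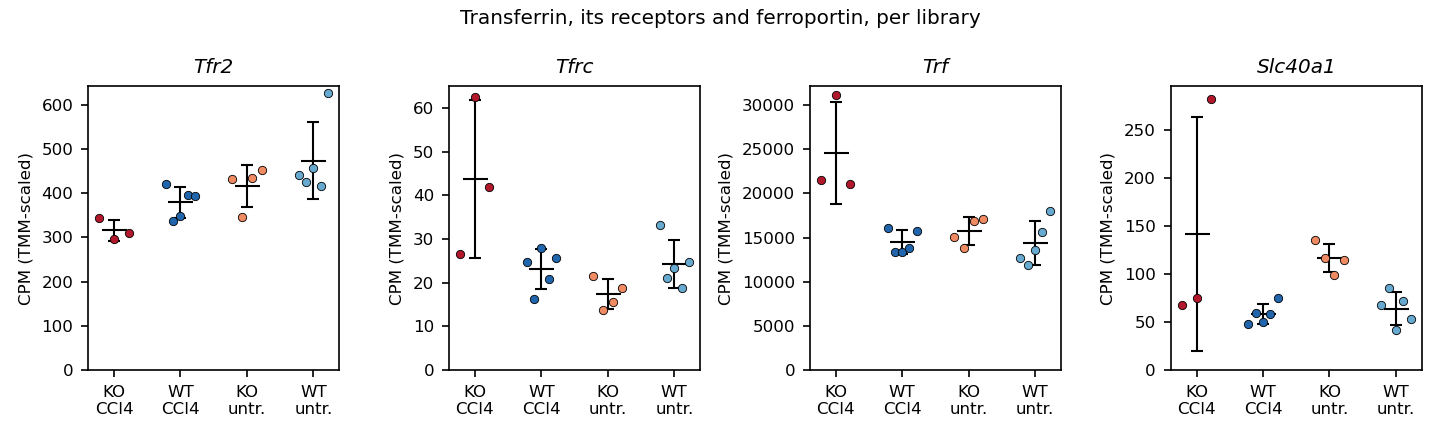
CPM of Tfr2, Tfrc, Trf and Slc40a1 in each library (points), with the group mean and 1 SD (bars). Trf lies at 21050 to 31190 CPM in KO CCl4 and at 18000 CPM or lower in all other libraries, and the high Slc40a1 point, 283 CPM, is KO CCl4 replicate 3.

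Trf (ENSMUSG00000032554, minus strand of chr9:103204001-103230444), the plasma iron carrier made by hepatocytes, was also highest in KO CCl4. It had 21490, 31190 and 21050 CPM there, against 15110, 13830, 16880 and 17150 CPM in KO untreated and 16100, 13340, 13410, 13840 and 15750 CPM in WT CCl4. No library of either group reached KO CCl4, and 14.4% of all tested genes likewise lay above KO untreated without overlap. The rise was 1.56-fold over KO untreated (log2 fold change 0.64 ± 0.19, SE, adjusted p = 0.0212, edgeR) and 1.70-fold over WT CCl4 (0.76 ± 0.18, adjusted p = 0.0103), and 10.1% of all tested genes were higher without overlap in KO after CCl4. WT untreated libraries had 12730, 11900, 13600, 15650 and 18000 CPM, and in wild type cells CCl4 over untreated was 0.01 ± 0.15 (adjusted p = 0.983, interval from −0.29 to 0.31). The difference of the CCl4 effects was 0.63 ± 0.24 (adjusted p = 0.185), and KO over WT untreated was 0.13 ± 0.16 (adjusted p = 0.914). Leaving out KO CCl4 replicate 2 gave changes of 0.43 (adjusted p = 0.154) and 0.55 (adjusted p = 0.0682), and without replicate 3 both calls were made. The change over KO untreated was also not called without KO untreated replicate 2 (0.59, adjusted p = 0.0582). Trf shares 2108 exonic bases with the annotated gene Gm20425 on the same strand, which can divide their reads.

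Tfr2 (ENSMUSG00000029716, plus strand of chr5:137569840-137587481), the hepatocyte sensor that acts upstream of Hamp, had 343, 296 and 309 CPM in KO CCl4, against 432, 347, 434 and 451 CPM in KO untreated. All KO CCl4 libraries were lower, as was so for 10.8% of all tested genes, but the log2 fold change of −0.40 ± 0.16 (SE) missed the threshold (adjusted p = 0.103, edgeR). In wild type cells it had 421, 336, 348, 396 and 394 CPM after CCl4, against 442, 425, 457, 416 and 625 CPM untreated. Those groups overlapped only at 421 CPM in WT CCl4 replicate 1 and 416 CPM in WT untreated replicate 4, with −0.32 ± 0.13 (adjusted p = 0.271). With unscaled library totals the fitted change in wild type cells was 0.09 where the median of all genes was 0.38, so it lay below the median of all genes there as it did with scaled totals (−0.32 beside −0.01). KO over WT was −0.26 ± 0.16 after CCl4 (adjusted p = 0.308) and −0.19 ± 0.14 untreated (adjusted p = 0.812).

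Slc40a1 (ENSMUSG00000025993, minus strand of chr1:45908068-45926523), the iron exporter that hepcidin targets, had 67.4, 75.2 and 283 CPM in KO CCl4, against 48.0, 58.9, 49.9, 58.5 and 74.6 CPM in WT CCl4. The call for KO after CCl4 (log2 fold change 1.29 ± 0.36, SE, adjusted p = 0.0283, edgeR) rested on KO CCl4 replicate 3: without it the change was 0.30 (adjusted p = 0.575). Leaving out WT CCl4 replicate 1, 2, 3 or 4 also ended the call, with changes of 1.23, 1.29, 1.24 and 1.29 (adjusted p = 0.059, 0.0582, 0.063 and 0.0517). Limma voom did not make the call either (0.98, adjusted p = 0.081), and it was made in 18 of 28 alternative fits. KO CCl4 replicate 3 had the highest summed macrophage markers, 5546 CPM, and macrophages express ferroportin at high levels, but their part in the Slc40a1 value was not tested. In untreated cells Slc40a1 had 136, 117, 99.4 and 114 CPM in KO, against 68.1, 85.3, 41.5, 72.1 and 53.2 CPM in WT. All KO untreated libraries were higher, as was so for 1.76% of all tested genes, and the log2 fold change was 0.86 ± 0.34 (adjusted p = 0.384). Summed macrophage markers were 28.6 to 68.8 CPM in KO untreated and 21.01 to 78.0 CPM in WT untreated. The part of macrophages in this difference was not tested. When KO CCl4 replicate 3 was left out of the shared estimate of the spread, the difference in untreated cells, 0.87, was called (adjusted p = 0.0321). This difference was called in 1 of 28 alternative fits, and its adjusted p reached 0.647. CCl4 over untreated was 0.28 ± 0.38 in KO (adjusted p = 0.690), where KO CCl4 replicate 3 set the direction, since without it the change was −0.71 (adjusted p = 0.081). In WT it was −0.14 ± 0.32 (adjusted p = 0.885).

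**Figure D5:**
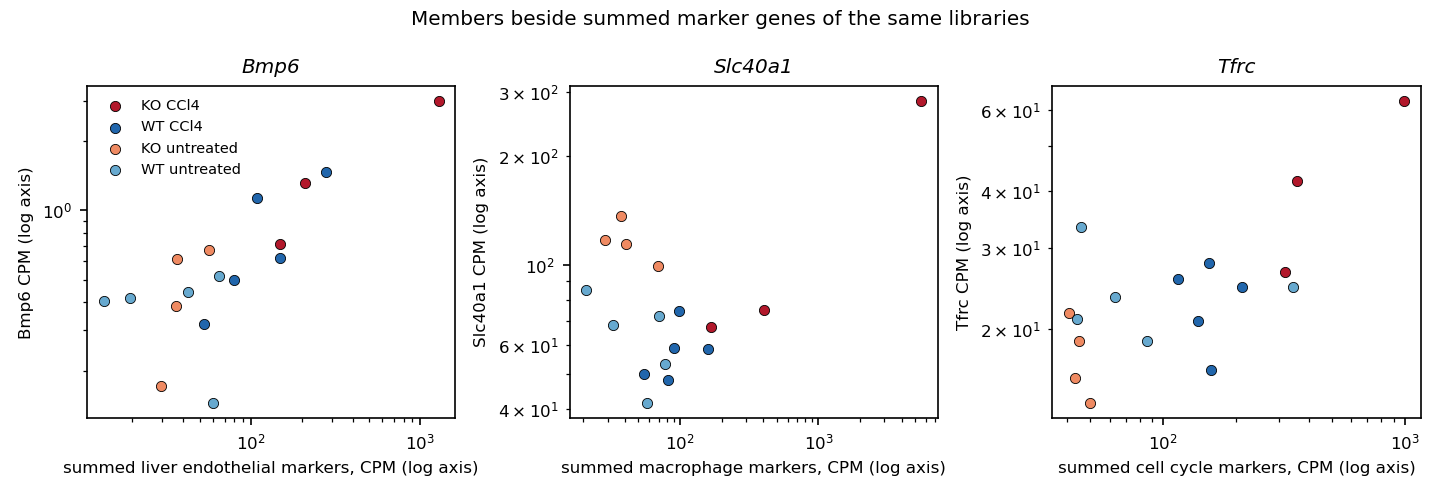
Bmp6 against summed liver endothelial markers, Slc40a1 against summed macrophage markers and Tfrc against summed cell cycle markers, in CPM on log axes, with 1 point per library coloured by group. KO CCl4 replicate 3 is the point at the upper right of the Bmp6 and Slc40a1 panels (1286 and 5546 CPM of markers), and KO CCl4 replicate 2 that of the Tfrc panel (993 CPM).

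The wider pathway was read from 9 lists with 101 genes, of which 97 were in the table and 89 were tested. Among other BMP-type ligands, 4 of 7 tested genes rose with CCl4 in KO and 0 fell, against 12.1% of all tested genes called higher and 6.96% lower. These were Inhbb, the subunit of activin B, which had 3.33 ± 2.69 CPM in KO CCl4 against 0.067 ± 0.071 CPM in KO untreated (SD, adjusted p = 0.00453, edgeR), Bmp2 (11.9 ± 12.8 against 0.973 ± 0.913 CPM, adjusted p = 0.0216), Bmp7 (5.47 ± 2.4 against 2.14 ± 0.522 CPM, adjusted p = 0.0156) and Gdf2, which encodes BMP9. Gdf2 had 72 counts in KO CCl4 and 0 in KO untreated, at least 27.0-fold higher against a floor of 3 counts over the group. The median log2 fold change of these 7 ligands was 1.35 for CCl4 in KO, also with Gdf2 at its bound, beside 0.01 for all tested genes. Bmp2 and Gdf2 are made by non-parenchymal liver cells. Of their markers, 17 of 18 tested for liver endothelial cells and 9 of 10 for stellate cells and fibroblasts were called higher in the same comparison, and their part in these values was not tested. Without KO CCl4 replicate 3, Inhbb (log2 fold change 4.78), Bmp7 (1.45) and Gdf2 were still called and Bmp2 was not (2.22, adjusted p = 0.188), and Bmp7 was lost without KO CCl4 replicate 2 (0.94, adjusted p = 0.127). After CCl4, KO over WT called 1 ligand of 7, Inhbb (3.33 ± 2.69 against 0.386 ± 0.213 CPM, adjusted p = 0.0437), which was not called without KO CCl4 replicate 3 (2.33, adjusted p = 0.253) and was called in 7 of the 17 fits that left out a library. Of all tested genes 7.62% were called higher in that comparison.

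Of 11 tested receptors and co-receptors, the 2 called for CCl4 in KO and for KO after CCl4 were Acvrl1 and Eng, receptors typical of endothelial cells. Of all tested genes 19% were called for CCl4 in KO, a share near that of the receptors, and 11.8% for KO after CCl4. Acvrl1 had 9.41 ± 12.9 CPM in KO CCl4, against 0.262 ± 0.163 CPM in KO untreated (adjusted p = 0.00281, edgeR) and 0.708 ± 0.542 CPM in WT CCl4 (adjusted p = 0.0117). Eng had 50.4 ± 60.5 CPM in KO CCl4, against 3.26 ± 2.51 CPM in KO untreated (adjusted p = 0.00285) and 10.2 ± 6.47 CPM in WT CCl4 (adjusted p = 0.0417). Without KO CCl4 replicate 3 both were still called for CCl4 in KO (log2 fold changes 2.84 and 2.25), and neither was for KO after CCl4 (1.47 and 0.61, adjusted p = 0.379 and 0.714). Eng for KO after CCl4 was called in 10 of the 17 fits that left out a library. The other 9, among them the hepatocyte genes Hjv, Hfe and Tmprss6 and the receptors Bmpr1a and Acvr1, were not called in any comparison. Hjv, the BMP co-receptor hemojuvelin, averaged 65.8 ± 7.32 CPM in KO CCl4, 44.8 ± 7.48 in KO untreated, 81.8 ± 24.6 in WT CCl4 and 76.2 ± 24.04 in WT untreated. Tmprss6, the protease that cleaves hemojuvelin, averaged 314 ± 86.3, 471 ± 78.3, 423 ± 39.7 and 460 ± 86.5 CPM in those groups.

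Among 12 tested SMAD transducers and inhibitors, Skil, a repressor of SMAD-driven transcription, rose in KO CCl4 to 24 ± 7.15 CPM, against 10.5 ± 2.69 CPM in KO untreated (adjusted p = 0.0119, edgeR) and 7.86 ± 2.57 CPM in WT CCl4 (adjusted p = 0.00244). Smad9, which encodes SMAD8, fell to 5.79 ± 3.94 CPM in KO CCl4, against 23.0 ± 9.30 CPM in KO untreated (log2 fold change −1.99, adjusted p = 0.00372). For CCl4 in KO this was 1 of 12 higher and 1 lower, near the 12.1% and 6.96% of all tested genes. For KO after CCl4 it was 1 of 12 higher, near the 7.62% of all tested genes. Without KO CCl4 replicate 3, Skil after CCl4 (1.43, adjusted p = 0.0222) and Smad9 (−1.66, adjusted p = 0.0212) were still called, and Skil for CCl4 in KO was not (1.01, adjusted p = 0.0634). Of 4 other BMP target genes tested, Id3 was called for KO after CCl4, with 100.6 ± 91.8 CPM in KO and 27.4 ± 7.82 CPM in WT (adjusted p = 0.0324), and not without KO CCl4 replicate 3 (0.80, adjusted p = 0.459), with the call made in 12 of the 17 fits that left out a library. Id2, Id4 and Atoh8 were not called in any comparison, and Atoh8 averaged 11.6 ± 3.32 CPM in KO CCl4 and 28.5 ± 15.2 CPM in KO untreated. Of 6 secreted antagonists, Bmper rose with CCl4 in KO to 2.02 ± 1.34 CPM, against 0.158 ± 0.147 CPM untreated (adjusted p = 0.00552). In WT, 50 counts of Bmper after CCl4 stood against 1 count untreated, a depth-adjusted ratio of 30.7 with a 95% counting interval from 5.26 to 1240. Bmper in WT was called in 9 of the 17 fits that left out a library. Beside these single calls among 4 target genes and 6 antagonists, 7.62% of all tested genes were called higher for KO after CCl4. The share called higher was 12.1% for CCl4 in KO and 0.576% for CCl4 in WT.

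In the arm from interleukin-6 to STAT3, 2 of 15 tested genes rose with CCl4 in KO, a share near the 12.1% of all tested genes called higher, and neither encodes a step of the signal. Lcn2, the iron-siderophore binder lipocalin 2, had 439 ± 352 CPM in KO CCl4, against 3.31 ± 1.61 CPM in KO untreated (adjusted p = 0.000391, edgeR) and 37.3 ± 33.8 CPM in WT CCl4 (adjusted p = 0.00837). Its CCl4 effect was larger in KO than in WT by 5.02 ± 1.12 on the log2 scale (adjusted p = 0.0443), which was the 1 call of the 89 tested pathway genes for the difference of effects, a share near the 1.09% of all tested genes. That call was made in 4 of the 17 fits that left out a library, and KO after CCl4 without KO CCl4 replicate 3 was 2.73 (adjusted p = 0.0838). Orm2, an acute-phase plasma protein, had 104 ± 67.1 CPM in KO CCl4 and 10.2 ± 4.10 CPM in KO untreated (adjusted p = 0.00302). Stat3 averaged 179 ± 81.8 CPM in KO CCl4, 123 ± 37.2 in KO untreated, 132 ± 31.8 in WT CCl4 and 125 ± 46.9 in WT untreated, and was not called.

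The genes of the iron regulatory proteins, which bind the hairpins printed above, were lower in KO CCl4 than in WT CCl4. Ireb2, the gene of IRP2, had 40 ± 16.04 CPM in KO CCl4, against 64.8 ± 10.2 CPM in KO untreated (log2 fold change −0.70, adjusted p = 0.0456, edgeR) and 70.4 ± 9.83 CPM in WT CCl4 (−0.81, adjusted p = 0.0276). Aco1, the gene of IRP1, had 146 ± 37.6 CPM in KO CCl4 and 224 ± 32.6 CPM in WT CCl4 (−0.62, adjusted p = 0.0259). Nfs1, the cysteine desulfurase of iron-sulfur cluster assembly, had 37.1 ± 5.61 CPM in KO CCl4 and 54.1 ± 8.85 CPM in KO untreated (−0.54, adjusted p = 0.0423). These 3 were the called genes of 8 tested, 2 lower in each comparison, against 6.96% of all tested genes for CCl4 in KO and 4.21% for KO after CCl4. Without KO CCl4 replicate 3 none was called (Ireb2 −0.40 and −0.52, Aco1 −0.42, Nfs1 −0.53). In that fit 11.7% of all tested genes were called for CCl4 in KO and 2.94% for KO after CCl4. Over the 17 fits that left out a library, the calls for CCl4 in KO were made in 4 for Ireb2 and 7 for Nfs1, and those for KO after CCl4 in 14 for Ireb2 and 14 for Aco1. Of 13 genes of iron import, storage and export, Steap2, a metalloreductase, was called higher for CCl4 in KO (1.15, adjusted p = 0.0257) and Pcbp2, an iron chaperone, lower (−0.35, adjusted p = 0.0446). Of all tested genes 12.1% were called higher there and 6.96% lower, so these counts lie near or below that background. Steap2 was called without KO CCl4 replicate 3 and not without replicate 1 (0.96, adjusted p = 0.0904). Of the 17 fits that left out a library, Steap2 was called in 12 and Pcbp2 in 1. The ferritin subunits were not called: Fth1 averaged 819 ± 199 CPM in KO CCl4, 913 ± 134 in KO untreated, 836 ± 75.8 in WT CCl4 and 999 ± 111 in WT untreated.

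Genes of heme handling changed in both directions for CCl4 in KO, with 4 of 13 tested genes higher and 3 lower, against 12.1% of all tested genes higher and 6.96% lower. Hmox1, the heme-degrading enzyme abundant in macrophages, had 71.4 ± 106 CPM in KO CCl4, with 194 CPM in replicate 3, against 5.94 ± 4.18 CPM in KO untreated (adjusted p = 0.00564, edgeR) and 4.85 ± 1.24 CPM in WT CCl4 (adjusted p = 0.00401). Slc48a1, a heme transporter of lysosomes, was higher (0.85, adjusted p = 0.0068), and Fech, which inserts iron into protoporphyrin (−0.70, adjusted p = 0.0134), and Slc46a1, a folate carrier that also takes up heme (−0.78, adjusted p = 0.0203), were lower. For KO after CCl4 the called genes were Hmox1, Hpx, the plasma heme scavenger (8217 ± 2014 CPM in KO, 4309 ± 559 CPM in WT, adjusted p = 0.00975), and Abcg2, a porphyrin exporter (31.7 ± 8.70 CPM in KO, 63.8 ± 7.79 CPM in WT, adjusted p = 0.00666). These were 2 of 13 higher and 1 lower, against 7.62% of all tested genes higher and 4.21% lower. With KO CCl4 replicate 3 left out, 0 of 13 were called in either comparison, with Hmox1 at 0.80 and 1.10 (adjusted p = 0.319 and 0.216), Hpx at 0.72 (adjusted p = 0.0959) and Abcg2 at −0.82 (adjusted p = 0.0574). In that fit 11.7% of all tested genes were called for CCl4 in KO and 2.94% for KO after CCl4. Beyond Bmper, none of the 89 tested genes was called for CCl4 in WT, and none for the knockout in untreated cells. Of all tested genes 0.853% and 0.933% were called in these comparisons.

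The genes whose levels ran most like each member were sought among 9117 other genes with a mean of at least 5 CPM, by Pearson's r of log2 CPM over the 17 libraries, which share groups and composition, so r is a description. Hamp2 ran most like BC025446, Fmo1 and Hsd3b3 (r = 0.899, 0.896 and 0.895), while for Hamp the nearest were Atxn7l3, Zfp598 and Amz2 (0.717, 0.699 and 0.693), so the copies shared none of their 3 nearest genes. Trf ran most like 1700017B05Rik, Nras and Suv39h1 (0.903, 0.892 and 0.891), and Slc40a1 most like Arrb2, Ube2q1 and Grn (0.900, 0.870 and 0.848). Tfrc ran most like Txndc5, Ero1l and Plxna1 (0.854, 0.805 and 0.805). Id1 ran most like Acer3, Irf1 and Dnmt3a (0.814, 0.807 and 0.806), Smad7 like Bcor, Capn15 and Plekha1 (0.816, 0.785 and 0.780) and Tfr2 like Slc35e3, Hspb1 and Npr2 (0.843, 0.839 and 0.838). Bmp6 and Smad6 lay below 5 CPM and were not compared.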

How the data were processed

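The authors deposited 1 table of raw counts per gene for the 17 libraries, whole numbers identified by Ensembl gene. The submitters' processing notes name STAR 2.4.1d with mm10, FastQC, DESeq2, edgeR and limma. Which tool counted the reads, with which strand setting and annotation, is not given in the sources used here. Symbols were matched for 22914 of 23461 identifiers and mm10 positions for 22929.

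The counts were fitted with edgeR 4.0.16 (R 4.3.3). All 17 libraries entered 1 fit with a mean per group, after filterByExpr (minimum count 10, minimum total 15) and TMM scaling, and contrasts were tested by the robust quasi-likelihood F test with Benjamini-Hochberg adjustment over the 13721 genes kept. Calls were made at an adjusted p under 0.05. Gene levels are CPM of the scaled library size or RPKM over the union of GENCODE M21 exons, and SE is the size of a log2 fold change divided by the root of its F. Correlations used log2 CPM with a prior count of 0.5 and 100000 two-sided permutations within groups. Wilson intervals and the floor of 3 counts cover counting error only.

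Named genes were all 10 members, up to 4 called genes per pathway list and comparison with the smallest p, the 3 genes most like each member, and Yap1 and Wwtr1. Other genes named with values (Hjv, Tmprss6, Atoh8, Stat3, Fth1) were chosen after their values were seen. The members, lists and tests were chosen with earlier results of these data known. Replicate numbers do not pair samples, per the labels: deviations from the group means correlated at a median of −0.02 between same-numbered libraries. In 29 pairs of libraries within groups, the lowest chi-square per gene was 23.4, so none was counted as a duplicate. Alternatives were scaling by RLE, by upper quartile or by library totals alone, other filters, DESeq2 1.42.0, limma voom (limma 3.58.1), fits of the 2 compared groups, the replicate number as a block, leaving out each library, the 2 libraries over 30% mitochondrial or the mitochondrially encoded genes, and, for correlations, a prior count of 2 and no removal of group means. The pipeline was tested on simulated counts. Promoter sequences are RefSeq's and elements were read from GENCODE M21. No library or column was left out of the main analysis.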

Additional observations from a re-analysis of the deposited data

Results flagged for a closer look

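Among 30 member-by-group sets of 4 or 5 libraries, 3 had a library whose gap to its nearest neighbour exceeded Dixon's 95% critical value for the group's range, where chance gives about 1 in 20. Bmp6 was lowest in WT untreated replicate 5, at 0.1445 CPM, with a gap of 0.798 of the range against a critical value of 0.71. Tfr2 was highest in the same library, at 625.2 CPM, with a gap of 0.768 against 0.71, and mitochondrially encoded genes held 30.8% of that library's counts. Tfr2 was lowest in KO untreated replicate 2, at 346.7 CPM, with a gap of 0.839, just past the critical value for 4 libraries.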

How the results depend on the processing

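For CCl4 in KO, 2 of the 10 genes were called, 1 (Tfrc) in a fit of the 2 compared groups and 1 to 2 when any library was left out. The share of all tested genes called there was 19%, 9.92% in that fit, and 11.7 to 21.3% with a library left out. For KO after CCl4, 4 were called, and 1 (Hamp2) with unscaled library totals or the 2 compared groups only. With the replicate number as a block, 2 (Hamp2 and Trf) were called. Without both libraries over 30% mitochondrial it was 1 (Trf), and 1 to 5 when any library was left out. The share of all tested genes called there was 11.8%, 7.93% with unscaled totals and 8.21% with the 2 compared groups. That share was 6.32% with the block and 3.96% without both libraries. It was 2.94 to 15.3% with a library left out, lowest without KO CCl4 replicate 3. The cause of these changes in the calls was not tested. For KO untreated, 0 were called, 1 (Hamp2) by DESeq2, which called 2.41% of all tested genes, and 0 to 1 when any library was left out. For the difference of CCl4 effects, 0 were called and 1 (Tfrc) by DESeq2, which called 5.87% of all tested genes. Leaving out any library gave 0 to 1. For CCl4 in WT, 0 were called under every alternative run. The replicate block gave no other change in the number of calls among the 10 genes; the numbers do not pair libraries. The correlation of Hamp with Bmp6 was 0.635 and that with Smad6 0.65 with unscaled library totals (adjusted p = 0.0484 each), and leaving out a library gave 0.481 to 0.694 for Bmp6, 0.421 to 0.792 for Smad6, 0.270 to 0.666 for Id1 and −0.12 to 0.463 for Smad7. The relation with Bmp6 passed without WT untreated replicate 4 (adjusted p = 0.0292) or WT CCl4 replicate 4 (0.0456) or 5 (0.0316), and that with Smad6 without WT untreated replicate 4 (0.0184). Unscaled library totals moved the median log2 fold change of all genes to 0.38 for CCl4 in WT, 0.20 for CCl4 in KO, 0.14 for KO untreated, −0.01 for KO after CCl4 and −0.16 for the difference. No called change of a gene was reversed. Depth limits Bmp6 (2 to 38 counts per library) most.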
